A study of Homo sapiens with 12 samples.

Results

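Reporter variants whose last sense codon before a stop codon encodes aspartate or glutamate, the amino acids with acidic side chains, were examined in a screen of the sequence around premature termination codons. Each variant is a window of 10 bases: the penultimate codon at bases 1 to 3, the last codon at bases 4 to 6, a stop codon or the tryptophan codon TGG at bases 7 to 9, and base 10 after it. Members were chosen by sequence alone. They have TAA, TAG or TGA at bases 7 to 9, no stop codon in the 2 codons before it, and GAC or GAT (aspartate) or GAA or GAG (glutamate) at bases 4 to 6. The EJC-independent table listed 1266 such variants, 825 of aspartate and 441 of glutamate. They were among 29088 stop codon variants without an earlier stop codon and 41955 rows in all. The EJC-enhanced table listed 1651, 1037 of aspartate and 614 of glutamate, among 34599 stop codon variants and 51306 rows. Windows with the same acidic codons before TGG served as controls, 290 of aspartate and 155 of glutamate in the EJC-independent table, and 417 and 305 in the EJC-enhanced table.

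All cells were HEK293T, a widely used line derived from human embryonic kidney, of wild-type genotype apart from 1 reporter library placed by Cre-Lox recombination at 1 site in the genome. The 4 groups were EJC-independent cells given SMG1i, EJC-independent cells given DMSO, EJC-enhanced cells given SMG1i and EJC-enhanced cells given DMSO. SMG1i is an inhibitor of nonsense-mediated decay used at 0.5 µM, DMSO is the solvent control, and RNA was harvested after 24 hours. Each group had 3 libraries, 12 in all, and the labels do not say whether these came from separate cultures. Coordinates of the integration site were not given in the sources used here. A variant is therefore located only by its window within the reporter transcript.

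Nonsense-mediated mRNA decay (NMD) degrades transcripts whose translation ends too early, and the kinase SMG1 starts it by phosphorylating the helicase UPF1. An exon junction complex (EJC), a protein mark that splicing leaves on mRNA, strengthens the decay when it lies downstream of the stop codon, while some transcripts are targeted without it. At a stop codon the release factor eRF1 frees the nascent chain from the tRNA of the last sense codon, so this tRNA and its amino acid lie at the site of termination. Aspartate and glutamate share the first bases GA of their codons and differ in side chain length by 1 methylene group. GAC and GAT are read by a single family of aspartate tRNAs, whose wobble base carries the modification queuosine, and GAA and GAG are read by glutamate tRNAs.

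The response used below is the log2 fold change of reporter RNA between SMG1i and DMSO from the authors' deposited tables, with its sign turned so that a positive value is read as more RNA under SMG1i. Which treatment was the numerator is not stated in the tables. The sign was read from the stop codon variants, which lay far from 0 on 1 side while the TGG variants lay near 0. Were the comparison made the other way round, all signs below would be opposite at the same size. Only 1 comparison per variant was deposited, with no value per library. A variant's own error is therefore the deposited standard error (SE), and the spread over a group of variants is between sequences, not between cultures.

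The sequences in which all 4 acidic codons and their TGG controls were best measured are shown first, because they let the last codon be compared with every other base held constant. Among penultimate codons and 10th bases for which all 8 windows had a mean normalized count of 100 or more in both tables (4 contexts with TAA, 2 with TAG, 3 with TGA), the proline codon CCC with C at base 10 had the smallest sum of deposited SEs for each stop codon. Capitals mark the last codon, bases 4 to 6, and sequences run 5′ to 3′ on the sense strand.
GAC before TAA: cccGACtaac
GAT before TAA: cccGATtaac
GAA before TAA: cccGAAtaac
GAG before TAA: cccGAGtaac
GAC before TAG: cccGACtagc
GAT before TAG: cccGATtagc
GAA before TAG: cccGAAtagc
GAG before TAG: cccGAGtagc
GAC before TGA: cccGACtgac
GAT before TGA: cccGATtgac
GAA before TGA: cccGAAtgac
GAG before TGA: cccGAGtgac
GAC before TGG: cccGACtggc
GAT before TGG: cccGATtggc
GAA before TGG: cccGAAtggc
GAG before TGG: cccGAGtggc

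Every one of these 12 stop codon windows had a positive response in the EJC-independent reporter, with an adjusted p under 0.05 in the authors' deposited table. Their mean counts were all above 200, where 99.6% of all stop codon variants of that reporter were called higher. Before TAA the responses were 2.05 ± 0.08 for cccGACtaac, 2.12 ± 0.11 for cccGATtaac, 1.71 ± 0.25 for cccGAAtaac and 1.76 ± 0.10 for cccGAGtaac (deposited SE), from mean counts of 4226, 1877, 629 and 2225. Both aspartate codons lay above both glutamate codons, and the mean difference, aspartate minus glutamate, was 0.35 (95% interval 0.05 to 0.65 from the deposited SEs). Before TAG the responses were 1.86 ± 0.13 (GAC), 1.82 ± 0.13 (GAT), 1.62 ± 0.13 (GAA) and 1.43 ± 0.12 (GAG), a difference of 0.31 (0.06 to 0.57). Both aspartate codons again lay above both glutamate codons, though GAC and GAT each overlapped GAA within their deposited SEs. Before TGA the responses were 2.13 ± 0.27 (GAC), 1.86 ± 0.14 (GAT), 1.77 ± 0.27 (GAA) and 1.63 ± 0.26 (GAG), in the same order of amino acids. The difference there of 0.29 had an interval from -0.18 to 0.76, which includes 0. The TGG controls of the same context also differed, with -0.08 ± 0.07 (GAC), -0.09 ± 0.08 (GAT), -0.19 ± 0.18 (GAA) and -0.74 ± 0.28 (GAG), so that aspartate exceeded glutamate by 0.38 (0.04 to 0.72) with no stop codon present. The control cccGAGtggc was called lower under SMG1i in the authors' deposited table, with an adjusted p of 0.0117.

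The order of the amino acids in this context was not the same in the EJC-enhanced reporter. Before TAA the responses were 1.99 ± 0.37 (GAC), 2.26 ± 0.41 (GAT), 2.29 ± 0.45 (GAA) and 2.68 ± 0.34 (GAG), so aspartate minus glutamate was -0.36 (-1.13 to 0.41). Before TAG they were 2.23 ± 0.26 (GAC), 2.95 ± 0.29 (GAT), 2.89 ± 0.37 (GAA) and 3.21 ± 0.48 (GAG), a difference of -0.46 (-1.17 to 0.24). Before TGA they were 2.48 ± 0.25 (GAC), 1.67 ± 0.54 (GAT), 2.12 ± 0.35 (GAA) and 1.93 ± 0.31 (GAG), a difference of 0.05 (-0.69 to 0.79). All 3 intervals include 0, and the deposited SEs here were larger than in the EJC-independent reporter.

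Across all members with a mean count of 10 or more, RNA was raised under SMG1i in both reporters whichever acidic codon came last. The mean response in the EJC-independent reporter was 1.80 ± 0.70 for aspartate (SD, 822 variants) and 1.73 ± 0.78 for glutamate (438 variants), against 1.72 ± 0.62 over all 28964 stop codon variants. These means correspond to a fold of 3.47 for aspartate, 3.32 for glutamate and 3.29 for all. For the EJC-enhanced reporter the means were 2.36 ± 0.84 for aspartate (1032 variants), 2.27 ± 1.01 for glutamate (610 variants) and 2.29 ± 0.76 over all 34522. The lower and upper quartiles of the aspartate variants were 1.42 and 2.12 in the EJC-independent table and 1.86 and 2.84 in the EJC-enhanced table, and those of the glutamate variants 1.37 and 2.12, and 1.64 and 2.91. A response below 0 was found for 7 aspartate (0.85%) and 14 glutamate variants (3.20%) of the EJC-independent reporter, against 0.90% of all stop codon variants. For the EJC-enhanced reporter there were 5 (0.48%) and 9 (1.48%), against 0.58% of all.

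The deposited SEs were nearly as large as this spread. The root mean square deposited SE was 0.59 for aspartate and 0.70 for glutamate in the EJC-independent table and 0.74 and 0.85 in the EJC-enhanced table, beside the SDs above. Acidic windows, glutamate ones most of all, were thinly covered. Of the 1464 possible windows of each amino acid the EJC-independent table listed 56.4% for aspartate and 30.1% for glutamate, against 65.1% over all sense codons. The EJC-enhanced table listed 70.8% for aspartate and 41.9% for glutamate, against 77.5%. Thin cover was not particular to the acidic amino acids. At a mean count of 10 or more lysine had 416 EJC-independent and 588 EJC-enhanced stop codon variants, beside 438 and 610 for glutamate. Asparagine had 762 and 996, beside 822 and 1032 for aspartate. The median mean count was 137 for aspartate and 86.9 for glutamate, against 245 over all stop codon variants of the EJC-independent reporter, and 99.6 and 54.9, against 143, in the EJC-enhanced reporter. At mean counts of 100 or more the amino acids lay close together. The means were 1.77 ± 0.42 for aspartate (492 variants), 1.78 ± 0.46 for glutamate (202) and 1.71 ± 0.41 for the other codons (19703) in the EJC-independent reporter. Those of the EJC-enhanced reporter were 2.41 ± 0.69 (515), 2.40 ± 0.75 (125) and 2.32 ± 0.60 (20790).

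Single members were called by the adjusted p of the authors' deposited table at 0.05. For the EJC-independent reporter 673 of 822 aspartate variants (81.9%) and 307 of 437 glutamate variants with a p-value (70.3%) were called higher under SMG1i in the authors' deposited table, against 84.9% of all stop codon variants. None was called lower, against 0.0104% of all. For the EJC-enhanced reporter 858 of 1032 aspartate variants (83.1%) and 428 of 609 glutamate variants (70.3%) were called higher in the authors' deposited table, against 86.1% of all stop codon variants. None was called lower, against 0.00291% of all. Where the mean count reached 200 the shares in the EJC-independent table were 337 of 338 for aspartate and 113 of 113 for glutamate, with 99.6% over all stop codon variants. In the EJC-enhanced table they were 211 of 220 and 38 of 40, with 97.5% over all. The lower share of glutamate calls thus came with lower counts, and the part of depth in it was not tested beyond this split.

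The TGG controls were near 0. Of 288 aspartate controls of the EJC-independent reporter 17 were called higher and 12 lower in the authors' deposited table, and of 155 glutamate controls 6 and 4, against 4.09% higher and 4.03% lower over all TGG variants. Of 415 aspartate controls of the EJC-enhanced reporter 17 were called higher and 5 lower in the authors' deposited table, and of 301 glutamate controls 8 and 6, against 2.76% higher and 1.38% lower. Each stop codon window was then paired with the TGG window that shares its other 7 bases. Stop minus TGG in the EJC-independent reporter was 1.81 ± 0.86 for aspartate (SD, 610 pairs, stop higher in 598) and 1.69 ± 0.98 for glutamate (203 pairs, stop higher in 191), where the other codons had 1.73 ± 0.75. The stop window was thus higher in 98.0% of the aspartate and 94.1% of the glutamate pairs, against 98.0% for the other codons. Pairs shared controls, with 266 and 113 distinct TGG windows here and 385 and 227 in the EJC-enhanced reporter. In EJC-enhanced pairs the stop window was higher in 96.8% of the aspartate pairs and 96.8% of the glutamate pairs, against 98.3% for the other codons. The differences averaged 2.30 over 951 aspartate pairs, 2.37 over 474 glutamate pairs and 2.26 over the others.

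To set each amino acid against the others with the neighbouring bases held constant, the response of all stop codon variants of a table was fitted by a linear model with terms for last codon, penultimate codon, stop codon and base 10, with errors clustered on the 6 random bases. With aspartate as last codon the fitted response was slightly higher than with the other amino acids in both reporters. The EJC-independent fitted level was 1.81 for aspartate and 1.73 for the other amino acids, a difference of 0.08 (95% interval 0.03 to 0.13, Wald test of the fit, Benjamini-Hochberg adjusted p = 0.00125 over the 20 amino acids). Aspartate had rank 3. Of the 20 amino acids 70.0% passed the same threshold in that table and 25% passed it as higher. The EJC-enhanced levels were 2.35 for aspartate and 2.28 for the others, a difference of 0.07 (0.02 to 0.12, Wald test of the fit, adjusted p = 0.0285), which was rank 1. There 15.0% of the amino acids passed and 10.0% passed as higher. The EJC-enhanced call was lost when only mean counts of 50 or more were kept (0.06, adjusted p = 0.0976, Wald test of the fit), when no filter on counts was set (0.07, adjusted p = 0.0606) and when the matched TGG value was subtracted (0.04, adjusted p = 0.925).

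Glutamate did not pass the test in either reporter. Its fitted level was 1.75 in the EJC-independent table, against 1.73 for the other amino acids, a difference of 0.02 (-0.05 to 0.09, Wald test of the fit, adjusted p = 0.702). It was 2.26 in the EJC-enhanced table, against 2.28, a difference of -0.02 (-0.10 to 0.07, adjusted p = 0.749). With inverse variance weights the EJC-independent glutamate effect was 0.05 and passed (Wald test of the fit, adjusted p = 0.00741). The EJC-enhanced effect was positive but did not pass with mean counts of 50 or more (0.05, adjusted p = 0.531), with inverse variance weights (0.03, adjusted p = 0.551), after subtraction of the matched TGG value (0.12, adjusted p = 0.389) and over variants of both tables (0.10, adjusted p = 0.191). Among the TGG controls glutamate had the lowest fitted level of the 20 amino acids in both tables. It lay at -0.11 relative to the others (-0.21 to -0.01, adjusted p = 0.278) in the EJC-independent table and at -0.13 (-0.22 to -0.03, adjusted p = 0.154) in the EJC-enhanced table, while aspartate lay at 0.02 and 0.04. No amino acid passed in either set of controls (0.0% and 0.0%). The effect before a stop codon minus the effect before TGG was 0.06 for aspartate (-0.02 to 0.15, adjusted p = 0.192) and 0.13 for glutamate (0.01 to 0.25, adjusted p = 0.0591) in the EJC-independent reporter, where 60% of the amino acids passed. It was 0.03 (-0.06 to 0.11, adjusted p = 0.947) and 0.11 (-0.02 to 0.23, adjusted p = 0.506) in the EJC-enhanced reporter, where 0.0% passed.

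Aspartate and glutamate were not told apart by the direct comparison in the fit. Aspartate minus glutamate was 0.07 in the EJC-independent reporter (-0.02 to 0.15, Wald test of the fit, adjusted p = 0.158 over the 190 pairs of amino acids), where 77.9% of all pairs passed. The EJC-enhanced difference was 0.08 (-0.01 to 0.18, adjusted p = 0.285), where 3.16% of pairs passed. Differences of more than 0.15 and 0.18 in favour of aspartate lie outside these intervals. The same contrast among the TGG controls was 0.13 (0.01 to 0.25, adjusted p = 0.310) and 0.16 (0.04 to 0.28, adjusted p = 0.148), and none of the 190 pairs passed there. Contexts that held both amino acids share the penultimate codon, stop codon and base 10. Their mean difference was 0.08 over 294 contexts of the EJC-independent reporter (-0.02 to 0.19), with aspartate higher in 152. It was 0.11 over 405 contexts of the EJC-enhanced reporter (0.0016 to 0.21), with aspartate higher in 208. This last interval just excludes 0 and was not adjusted.

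The synonymous codons gave no difference that passed the test. The fitted levels in the EJC-independent reporter were 1.79 for GAC, 1.84 for GAT, 1.71 for GAA and 1.79 for GAG. Among the 61 sense codons, whose levels ran from 1.40 to 2.18, they had ranks 19, 12, 32 and 18. The EJC-enhanced levels were 2.37 for GAC, 2.32 for GAT, 2.29 for GAA and 2.23 for GAG, with ranks 1, 15, 25 and 49 in the narrower range from 2.10 to 2.37. GAC minus GAT was -0.05 (-0.15 to 0.05, Wald test of the fit, adjusted p = 0.492 over 87 synonymous pairs) in the EJC-independent reporter and 0.06 (-0.04 to 0.15, adjusted p = 0.714) in the EJC-enhanced reporter. GAG minus GAA was 0.08 (-0.06 to 0.22, adjusted p = 0.392) and -0.06 (-0.23 to 0.10, adjusted p = 0.982). Of all synonymous pairs 25.3% passed in the EJC-independent and 2.3% in the EJC-enhanced reporter. Before TGG the glutamate codons stood at the low end, with GAA at rank 61 and GAG at rank 60 in the EJC-independent table and at ranks 61 and 56 in the EJC-enhanced table.

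Split by stop codon, no acidic amino acid deviated from the additive fit past the threshold. EJC-independent aspartate windows averaged 1.73 before TAA, 1.71 before TAG and 1.97 before TGA, and glutamate windows 1.72, 1.58 and 1.92, while the other codons averaged 1.69, 1.63 and 1.84. TGA gave the highest mean for both amino acids and for the rest. EJC-enhanced aspartate windows averaged 2.31, 2.35 and 2.41, glutamate windows 2.34, 2.19 and 2.28, and the other codons 2.31, 2.26 and 2.30. Terms for each amino acid with each stop codon deviated from additivity by -0.11 to 0.09 in the EJC-independent reporter and by -0.10 to 0.09 in the EJC-enhanced reporter. None, 0 of 6, of the acidic terms passed in either (Wald test of the fit, adjusted over the 60 terms of a table, of which 3.33% and 0.0% passed), with 0 and 0 at an unadjusted p under 0.05. Within matched contexts of the EJC-independent reporter GAC exceeded GAT before TAG by 0.27 (0.10 to 0.43, higher in 61 of 100 contexts), and the corresponding values were -0.14 (-0.29 to 0.02) before TAA and -0.08 (-0.28 to 0.12) before TGA. EJC-enhanced GAC minus GAT before TAG was -0.02 (-0.23 to 0.19). There aspartate minus glutamate before TAG was 0.25 (0.04 to 0.45, higher in 73 of 123 contexts) and before TAA -0.06 (-0.23 to 0.11). These matched values are descriptions of 1 stop codon at a time and were not adjusted.

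Base 10, the base after the stop codon, likewise gave no acidic term past the threshold. For bases A, C, G and T the aspartate means were 1.92, 1.82, 1.74 and 1.71 in the EJC-independent reporter and 2.43, 2.31, 2.33 and 2.39 in the EJC-enhanced reporter. The glutamate means were 1.85, 1.66, 1.64 and 1.81 in the EJC-independent and 2.16, 2.28, 2.34 and 2.29 in the EJC-enhanced reporter. The other codons had 1.77, 1.69, 1.71 and 1.72, and 2.32, 2.30, 2.25 and 2.29. None of the 8 acidic terms passed in either table (Wald test of the fit, adjusted over 80 terms, of which 0.0% and 0.0% passed). By an unadjusted p, 1 term was under 0.05, aspartate with T in the EJC-independent reporter, at -0.11 (-0.21 to -0.02). A at base 10 gave the highest mean for aspartate and for the other codons in both reporters. For glutamate it gave the highest mean in the EJC-independent reporter and the lowest in the EJC-enhanced reporter.

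The penultimate amino acid split the members into small cells, of at most 12 contexts each. Of 39 acidic EJC-independent cells 3 deviated from additivity, all upward. Of all cells of last and penultimate amino acid 11.6% did so, 6.28% upward and 5.28% downward (Wald test of the fit, adjusted over all cells). Aspartate after valine averaged 2.26 over 36 variants from 8 contexts, beside 1.86 for the other sense codons after valine. Its deviation was 0.35 (0.16 to 0.54, adjusted p = 0.00606). Aspartate after asparagine averaged 2.13 over 21 variants from 4 contexts, with a deviation of 0.33 (0.12 to 0.53, adjusted p = 0.0244). Their TGG controls averaged 0.25 and 0.02. Of 40 acidic EJC-enhanced cells 5 passed, 3 upward and 2 downward, against 5.75% of all cells, 2.75% upward and 3.0% downward. Aspartate after proline averaged 2.58 over 93 variants (deviation 0.20, 0.10 to 0.31, adjusted p = 0.00468). Glutamate after histidine averaged 2.68 over 34 variants (0.43, 0.25 to 0.61, adjusted p = 0.000118). Glutamate after glycine averaged 1.82 over 23 variants (-0.45, -0.68 to -0.22, adjusted p = 0.0042), with TGG controls at -0.48 over 14 windows. Glutamate after tryptophan averaged 1.81 over 6 variants from 2 contexts, with a deviation of -0.37. With mean counts of 50 or more the deviation was 0.12 for aspartate after valine (Wald test of the fit, adjusted p = 0.233), 0.18 after asparagine (adjusted p = 0.189), 0.17 for glutamate after histidine (adjusted p = 0.697) and -0.12 after glycine (adjusted p = 0.824), so these calls were lost. Aspartate after proline kept its call there (0.23, adjusted p = 0.00506) but lost it after subtraction of the matched TGG value (0.23, adjusted p = 0.0639). At counts of 50 or more 5 acidic EJC-independent cells were called, other than aspartate after valine or asparagine. After subtraction of the matched TGG value the aspartate-after-valine deviation was -0.22 (adjusted p = 0.772). With the larger of the errors over contexts and over variants, and only cells of 10 or more variants, 0 of 33 and 0 of 35 acidic cells passed, against 4.07% and 0.263% of all cells. By these larger errors 4 and 6 of the acidic cells were under an unadjusted p of 0.05, against 16.0% and 8.16% of all such cells. None of the acidic cells passed a test of the difference between reporters, where 0.271% of all cells passed.

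The remaining called cell, glutamate after glutamate, deviated by 1.88 in the EJC-independent and by 0.88 in the EJC-enhanced reporter, but rested on 2 and 5 variants. With mean counts of 50 or more the EJC-enhanced deviation was 0.08 (Wald test of the fit, adjusted p = 0.950), so that call was lost. These are shown in full, chosen after their values were seen, because so few of these windows were listed.
Glutamate pair before TAA, EJC-independent: gaaGAGtaac
Glutamate pair before TAG, EJC-independent: gagGAGtagc
Glutamate pair before TAA, EJC-enhanced: gaaGAAtaat
Glutamate pair before TAG, EJC-enhanced: gaaGAAtagc
Glutamate pair before TAG, EJC-enhanced: gaaGAAtagg
Glutamate pair before TAG, EJC-enhanced: gaaGAGtagt
Glutamate pair before TAG, EJC-enhanced: gagGAGtagt
The EJC-independent window gaaGAGtaac had a response of 4.35 ± 1.34 (deposited SE) from a mean count of 12.8, and gagGAGtagc 2.80 ± 0.37 from a count of 158. The EJC-enhanced responses were 3.40 ± 1.15 for gaaGAAtaat, 1.88 ± 0.84 for gaaGAAtagc, 3.96 ± 1.06 for gaaGAAtagg, 3.05 ± 1.19 for gaaGAGtagt and 3.19 ± 0.61 for gagGAGtagt, from mean counts between 11.3 and 69.0. Both EJC-independent values and 4 of the 5 EJC-enhanced values lay above the median of all stop codon variants of their table, 1.69 and 2.27, and gaaGAAtagc lay below it. The cell was named for its high values, so this count only describes them.

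Each stop codon variant was also set against the mean of the other last codons in its own context, with an error from the deposited SEs. Of 822 EJC-independent aspartate variants 11 were higher and 5 lower than their context, and of 438 glutamate variants 5 and 1, against 1.96% higher and 1.8% lower over all stop codon variants (Wald test, adjusted over the table). The share of variants above their context, whether called or not, was 56.3% for aspartate, 52.1% for glutamate and 48.5% over all. Of 1032 EJC-enhanced aspartate variants 3 were higher and 1 lower, and of 610 glutamate variants 0 passed, against 0.136% higher and 0.029% lower over all. The share above context was 53.3% for aspartate, 49.2% for glutamate and 48.8% over all.

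The smallest adjusted p values in that test belonged to a pair of EJC-independent members with opposite signs, named here after their values were seen. The window cccGACtaac, the first window shown above, exceeded the other last codons of its context by 0.38 (SE 0.08, Wald test, adjusted p = 0.0012). The window ttgGACtaaa, with a leucine codon before GAC, had a response of 0.91 ± 0.20 from a mean count of 459, while the other last codons of its context averaged 2.09, a deviation of -1.19 (SE 0.24, adjusted p = 0.000145). Its EJC-enhanced response was 3.36 ± 1.10, so the low value was not repeated there.

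By EJC-independent response, the highest and lowest members measured in both tables with a mean count of 100 or more, among 338 of aspartate and 72 of glutamate, are shown with their values in both reporters, to show how far well-covered windows of 1 amino acid lay apart.
Aspartate, highest: ccgGACtagt
Aspartate, second highest: cccGATtaag
Aspartate, second lowest: aggGACtagt
Aspartate, lowest: cggGATtagc
Glutamate, highest: cccGAGtgag
Glutamate, second highest: tccGAGtaaa
Glutamate, second lowest: cgcGAAtaag
Glutamate, lowest: ctcGAGtaac
These windows were ranked on the EJC-independent responses, so those are descriptions. The highest aspartate windows were ccgGACtagt with 3.08 ± 0.68 in the EJC-independent reporter and 1.91 ± 0.47 in the EJC-enhanced reporter, and cccGATtaag with 3.04 ± 0.38 and 2.85 ± 0.45. The lowest were aggGACtagt with 0.42 ± 0.37 and 0.81 ± 0.57, and cggGATtagc with 0.16 ± 0.54 and 1.81 ± 0.46. All 4 penultimate codons of these aspartate windows encode proline (highest) or arginine (lowest). This order was not particular to aspartate, since the other sense codons of the EJC-independent reporter averaged 1.81 after proline and 1.57 after arginine. The aspartate terms there deviated from additivity by 0.10 after proline and -0.04 after arginine, and neither passed. The highest glutamate windows were cccGAGtgag with 3.99 ± 0.54 and 3.13 ± 0.50, and tccGAGtaaa with 2.77 ± 0.40 and 2.10 ± 0.76. The lowest were cgcGAAtaag with 1.15 ± 0.42 and 2.07 ± 0.66, and ctcGAGtaac with 1.06 ± 0.48 and 2.52 ± 0.35. Of the 8 windows 5 lay on the same side of the mean of all stop codon variants in both reporters (1.72 and 2.29), and ccgGACtagt, tccGAGtaaa and ctcGAGtaac changed sides.

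Over all members present in both tables the responses of the same window were hardly related. Pearson's r was 0.05 over 703 aspartate windows and -0.05 over 268 glutamate windows, and 0.11 over 338 and 0.03 over 72 with mean counts of 100 or more, given as descriptions since windows share libraries within a table. The same held for the other sense codons, with r of 0.008 over 25200 windows. At mean counts of 100 or more their r was -1.4e-05 over 16144 windows. The tables were normalized apart, so the amino acids were compared between reporters only as contrasts within each table. The aspartate effect was 0.08 in the EJC-independent and 0.07 in the EJC-enhanced reporter, a difference of 0.01 (-0.05 to 0.08, Wald test, adjusted p = 0.725 over 20 amino acids). The glutamate effect was 0.02 and -0.02, a difference of 0.03 (-0.08 to 0.14, adjusted p = 0.687). Of the 20 amino acids 65.0% differed between reporters in this test, so differences of this kind were common in the screen while the acidic amino acids did not pass.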

How the data were processed

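The authors deposited 1 table per reporter, each comparing 3 SMG1i with 3 DMSO libraries per variant. Per the file headers the columns are a mean normalized count (a signal averaged over libraries), the log2 fold change and its standard error (also log2), the Wald score, and p-values before and after adjustment. The submitters' processing notes name DESeq and DESeq2. Versions, read processing and library depths were not given in the sources used here. The deposited mean normalized counts sum to 31033950 (EJC-independent) and 18874316 (EJC-enhanced) per table.

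Members, lists and tests were chosen with earlier results of these data known. Those variants whose mean count reached 10 entered an ordinary least squares fit over all stop codon variants of a table (last codon, penultimate codon, stop codon and base 10), with errors clustered on the 6 random bases, and a second fit over TGG variants. Contrasts had two-sided Wald tests with Benjamini-Hochberg adjustment over all contrasts of a family. Splits added terms for last amino acid with stop codon, base 10 or penultimate amino acid. Intervals are 95% normal intervals and cover the spread between sequences or, for single variants, the deposited error. The scripts used Python 3.11.15, numpy 2.4.6, pandas 2.3.3 and scipy 1.17.1, and the fit was tested on simulated data. Recomputed Wald scores and adjusted p-values equalled those deposited to rounding error. The windows named follow a rule: the best-measured matched context of each stop codon and the 2 highest and 2 lowest members of each amino acid, and each penultimate amino acid whose term passed. The window ttgGACtaaa and the glutamate-after-glutamate windows were named after their values were seen. The tables hold no count per library, so no count model was fitted and the authors' calls were used for single members. Alternatives covered the count filter, inverse variance weights, windows with ATG, matched TGG subtraction and variants present in both tables.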

Additional observations from a re-analysis of the deposited data

How the results depend on the processing

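No paired analysis was possible because the tables hold 1 comparison per variant and no value per library, so replicates could not be left out either. Under 6 alternatives and 1 chosen after seeing the data (the larger of 2 errors), 155 of 210 values were classed as unchanged. For effects and differences this meant the same direction and the same side of the threshold. The 210 also hold counts of calls, which have neither, and stop minus TGG differences, which lay far from 0 throughout. The aspartate effect in the EJC-enhanced reporter missed the threshold with no count filter (0.0652), with counts of 50 or more (0.0592) and after subtraction of the matched TGG value (0.0441). Weighting by inverse variance brought 4 values past it. These were the EJC-independent glutamate effect (0.0545) and 3 values of the effect before a stop codon minus the effect before TGG. The latter were EJC-independent aspartate (0.0674) and glutamate (0.138) and EJC-enhanced glutamate (0.134). Some values changed sign. After TGG subtraction they were the glutamate effect (-0.0149 EJC-independent, 0.120 EJC-enhanced), GAG minus GAA (-0.00996, EJC-independent), aspartate minus glutamate (-0.0734, EJC-enhanced), GAC minus GAT (-0.0222, EJC-enhanced), the reporter difference of glutamate (-0.135) and the EJC-independent cell of aspartate after valine (-0.224). With only variants of both tables they were, in the EJC-enhanced reporter, the glutamate effect (0.105), aspartate minus glutamate (-0.0167) and GAC minus GAT (-0.0126), and the reporter difference of glutamate (-0.0903). With counts of 50 or more they were GAC minus GAT (0.00206, EJC-independent), and, in the EJC-enhanced reporter, the glutamate effect (0.0462), GAG minus GAA (0.0322) and the cell of glutamate after tryptophan (0.0604), and the reporter difference of glutamate (-0.00362). With inverse variance weights they were GAC minus GAT (0.0301, EJC-independent), the EJC-enhanced glutamate effect (0.0271) and the reporter difference of aspartate (-0.00532). With ATG windows left out, the reporter difference of aspartate was -0.000288. Called penultimate cells numbered 5 (counts of 50 or more), 6 (inverse variance), 5 (TGG subtracted) and 0 (larger errors) in the EJC-independent reporter, against 3 in the report, and 3, 2 (TGG subtracted), 3 (variants of both tables) and 0 in the EJC-enhanced reporter, against 5. Members called against their context numbered 22 in the EJC-independent reporter, and this fell to 8 after TGG subtraction and rose to 31 with counts of 50 or more. In the EJC-enhanced reporter they fell from 4 to 2 without ATG windows. The authors' deposited table called 282 glutamate variants of the EJC-enhanced reporter with counts of 50 or more. The cause of these changes was not tested, except that a stricter filter leaves fewer variants. Not run was a GC term, which the penultimate codon and base 10 terms already contain. The effect before a stop codon minus the effect before TGG was not run without ATG windows, because each codon ending in A makes ATG before TGG. Glutamate variants had lower median counts than aspartate variants in both reporters, and the part of this in the changes was not tested.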

Other observations

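The aspartate and glutamate codons differ by a pyrimidine or a purine at base 6, and the same change is synonymous in 8 of the 14 codon boxes whose 4 codons are all sense codons. Pyrimidine minus purine before a stop codon was 0.07 for GA codons in the EJC-independent reporter (95% interval -0.02 to 0.15), within the range of the synonymous boxes, -0.05 to 0.14. In the EJC-enhanced reporter it was 0.08 (-0.01 to 0.18), with the synonymous boxes at -0.03 to 0.10. Before TGG the GA codons had the largest such difference of all 14 boxes in both tables, 0.13 and 0.16, where the synonymous boxes ran from -0.03 to 0.13 and from -0.05 to 0.04.

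Further terms were added to the fit after the data had been seen and are given without a test. An acidic last codon after a lysine or arginine codon deviated from additivity by -0.05 (-0.19 to 0.10, 125 variants) in the EJC-independent reporter and by -0.17 (-0.33 to -0.01, 176 variants) in the EJC-enhanced reporter. After an acidic penultimate codon the deviations were -0.09 (-0.37 to 0.20) and 0.01 (-0.22 to 0.24). A penultimate codon ending in T creates TGA across the boundary with GA codons, in another reading frame, and such windows deviated by 0.04 (-0.05 to 0.13) and 0.11 (0.01 to 0.21), against 0.01 (-0.14 to 0.15) and -0.09 (-0.23 to 0.04) before TGG. GAA before TGA creates an ATG across the boundary, and these windows deviated by 0.08 (-0.18 to 0.34) and -0.11 (-0.37 to 0.15), beside 0.09 (-0.16 to 0.33) and 0.09 (-0.14 to 0.32) for GAG before TGA.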
